A study of Homo sapiens with 6 samples.

Results

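The elongation wave described here is that of unirradiated cells: the movement of RNA polymerase II into genes after the inhibitor DRB was washed away. It was followed in the 3 untreated libraries of a series of 6, chosen by their labelled treatment, with 1 library each at 10, 25 and 40 min after DRB removal. All 3 came from MRC5VA, an immortalised line of human lung fibroblasts, which had been kept in 100 µM DRB for 3.5 hours and received no UVC. The other 3 libraries of the series, from cells given UVC, were not used. Nuclei were assayed by GRO-seq, in which polymerases already engaged on DNA extend their transcripts with a brominated nucleotide (here for 5 min) and the labelled RNA is isolated and sequenced.

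DRB inhibits CDK9, the kinase of the elongation factor P-TEFb. Without this kinase activity, polymerases that have started transcription stop shortly downstream of the start site, while those already far inside a gene run on to its end and leave it. Removing DRB lets the held polymerases go at about the same moment, so that the leading edge of nascent RNA can be followed into the gene with time. Upstream of many mammalian start sites a further polymerase transcribes the opposite strand for a short distance, which is called divergent transcription.

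Each library was deposited as 1 profile, a gene-averaged signal value for every base (122001 in all) between -2000 and 120000 bp. Position 0 was taken to be the annotated gene start, which the files do not state. The mean signal over the profile was 1.46, 1.84 and 2.17 at successive times. The values were whole multiples of 1 smallest step per library (100% of positions within 0.01 of a step), and the mean value was 24194 to 58160 steps per position. What a step counts is not stated, so the depth in reads is unknown and no counting interval could be given. With 1 library per time there are no replicates: no value below has an error that includes variation between cultures, and no difference between times was tested. What can be given is the local roughness of a profile, which is not a measure of error, since part of it was shared between libraries. From 10 kb on, 100 bp bins scattered around their 5 kb running median with an SD of 1.396% at 10 min, 1.13% at 25 min and 0.824% at 40 min (1100 bins each), and none of these bins reached 1.5 times that median in any library (highest 1.04). Scaling between libraries is unstated too. Dividing each profile by its own mean shifts every log2 ratio of 25 over 10 min by -0.33 and of 40 over 25 min by -0.24, and dividing by the far downstream signal shifts them by -0.20 and -0.056. Distances read relative to a profile's own height or its own total do not depend on this factor. Distances to a fixed signal level do.

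The region around the gene start held the highest signal of the course at 10 min, and its signal was much lower at 25 and 40 min. Per 100 bp bin, the profile had the same 4 features at each time. Upstream lay a broad rise and a dip just before position 0. Downstream lay a small first maximum and a larger maximum 1 to 2 kb into the gene. The first maximum was shallow: the lowest bin just after it held 99.2%, 98.0% and 95.6% of its signal at 10, 25 and 40 min. At 10 min it was thus barely set apart from the rise that followed. At 10 min the upstream maximum was 5.83 in the bin starting at -700 bp, the dip was 4.03 in the bin starting at -100 bp and the first downstream maximum was 5.92 in the bin starting at 100 bp. The highest bin of that library began at 1000 bp, with a signal of 8.67. At 25 min the upstream maximum was 2.23 (bin at -800 bp), the dip 1.61 (bin at -200 bp), the first maximum 2.36 (bin at 100 bp) and the highest bin 4.43 (at 1600 bp). At 40 min the same features had signals of 1.74 (bin at -800 bp), 1.42 (bin at -200 bp), 2.28 (bin at 100 bp) and 3.77 (bin at 1100 bp). The features thus kept their places to within 100 bp, apart from the highest bin. For 2 of them the search left little room to move. The first maximum was sought only in the bins starting at 0, 100 and 200 bp. The dip was sought only in the bins starting at -500 to 0 bp. The highest bin lies on a flat top at the 2 later times, where its place is poorly defined.

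The features did not shrink in proportion. Relative to the highest downstream bin of the same library, which removes the scaling factor, the upstream maximum was 67.3%, 50.3% and 46.2% in the 10, 25 and 40 min libraries. The highest downstream bin was 1.46 times the first downstream maximum at 10 min, 1.87 times at 25 min and 1.65 times at 40 min. From 10 to 25 min the ratio of signal within 2 kb of position 0 was lowest, 0.361, in the bin at -300 bp, and highest, 0.561, in the bin at 1900 bp. From 25 to 40 min it was lowest, 0.758, in the bin at -1900 bp and highest, 0.976, in the bin at position 0. Within 2 kb of position 0, the first bases of genes therefore differed least between the 2 later libraries and the far upstream end differed most. All 3 libraries remained above their far downstream level on the upstream side, with a mean from -2 to 0 kb of 5.01, 2.01 and 1.59. Whether this upstream signal is divergent transcription could not be examined, since a library has 1 profile and the strand is not given.

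**Figure D1:**
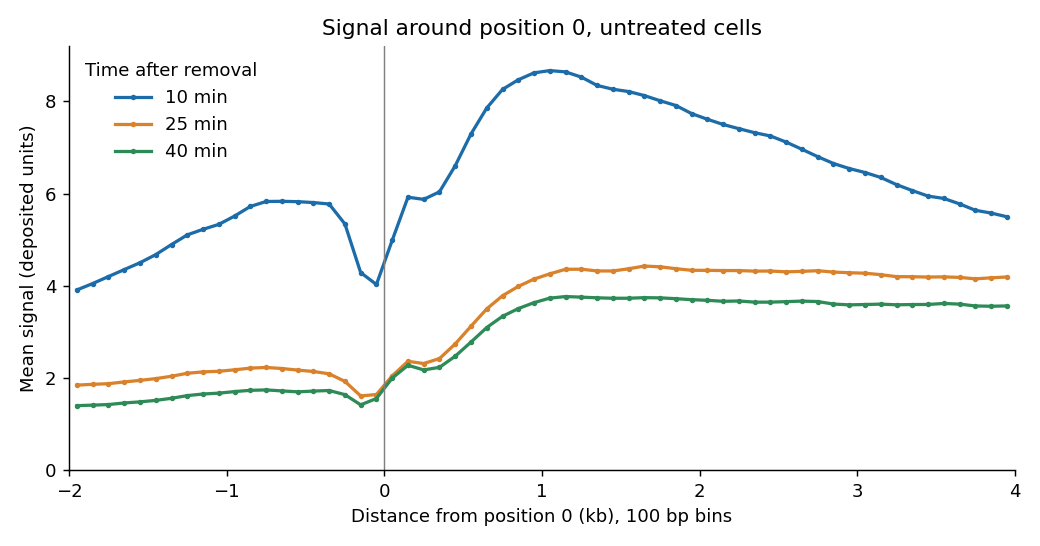
Mean signal in 100 bp bins (deposited units, vertical axis) against distance from position 0 (horizontal axis, -2 to 4 kb) for the single libraries at 10, 25 and 40 min. Over this range the 10 min line lies above the others, with a highest bin of 8.67 against 4.43 and 3.77. All lines dip just upstream of position 0.

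Farther into genes the order of the times changed, and in the 10 kb windows from 20 to 40 kb it was reversed. At 10 min signal was concentrated near the start, with a mean of 4.82 over the first 10 kb and 1.00076 over the next 10 kb. The 3 windows that followed had means of 0.797, 0.995 and 1.13, so the lowest signal of this profile lay between the start and the far region. At 25 min signal declined steadily from 4.02 over the first 10 kb to 3.54, 2.62, 1.81 and 1.23 in the next 4 windows of 10 kb, and was lowest at 1.14 from 50 to 60 kb. At 40 min it was nearly level over the first 40 kb, with 3.46, 3.36, 3.20 and 3.09 in successive windows. The 4 windows between 40 and 80 kb then declined to 2.60, 2.06, 1.67 and 1.41. Past 80 kb each profile was almost flat: 10 kb windows ranged from 1.13 to 1.18 in the 10 min library, 1.28 to 1.31 in the 25 min library and 1.33 to 1.35 in the 40 min library.

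The spread of signal along the span can be read without any scaling between libraries. The first 10 kb held 28.6% of all signal from 0 to 120 kb in the 10 min library, 18.2% in the 25 min one and 13.2% in the 40 min one. The window from 20 to 30 kb held 4.73%, 11.9% and 12.2%, and the window from 40 to 50 kb held 6.69%, 5.60% and 9.91%. In the 40 min library the first 4 windows of 10 kb held nearly equal shares, between 11.8% and 13.2%. The stretch with at least 90% of the wave maximum ended 2.67, 9.89 and 17.3 kb into genes at the successive times. This is a share of the maximum itself, unlike the height above the far downstream level used for the fronts below. At 40 min the end is poorly defined, since the running mean was 3.42 at 10 kb and 3.26 at 20 kb. Other smoothing was not tried for this measure. The 40 min profile also had a shelf. Its running mean was 3.26 at 20 kb, 3.21 at 25 kb, 3.19 at 30 kb and 3.13 at 35 kb, then 2.89 at 40 kb and 2.59 at 45 kb. The 25 min profile had no such shelf, going from 3.09 at 20 kb to 2.62, 2.21 and 1.82 at 25, 30 and 35 kb.

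**Figure D2:**
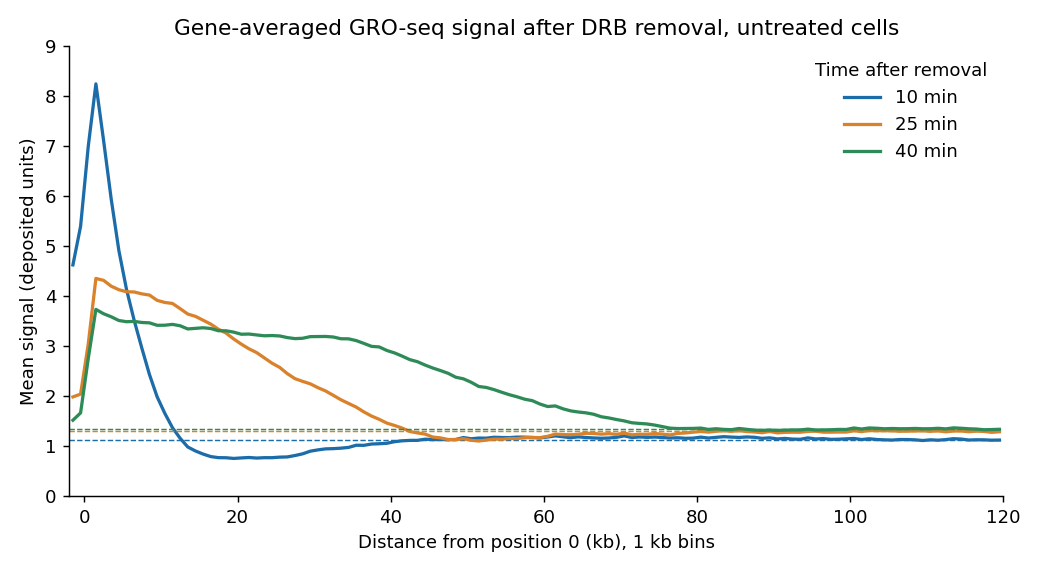
Mean signal in 1 kb bins (deposited units, vertical axis) against distance from position 0 (kb, horizontal axis) for the 3 untreated libraries, with the far downstream level of each library (mean of the last 12 kb) as a dashed line. The 10 min line falls to its lowest values near 20 kb, the 25 min line near 50 kb, and the 40 min line stays above 3 past 35 kb.

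Comparing the libraries position by position gives, for each pair of times, a zone near the start where the later signal was lower and a zone beyond it where it was higher. Ratios were taken on a running mean of 2 kb, and the place where the later profile first exceeded the earlier one is called the crossover. The comparisons share libraries with each other, so they are not separate pieces of evidence. Between 10 and 25 min the crossover lay at 5.59 kb. Beyond it the ratio climbed to its maximum at 16.8 kb, where the signal was 3.41 at 25 min and 0.785 at 10 min, a 4.35-fold difference (log2 ratio 2.12). The 25 min signal was at least 2-fold higher from 9.60 to 33.6 kb. On the near side, the lowest ratio was 39.3% of the 10 min signal, at -0.522 kb (2.12 against 5.40). Of 122 bins of 1 kb, 24.6% (30 bins, starting between 8 and 37 kb) were at least 1.5-fold higher at 25 min and 4.10% (5 bins, the first starting at -2 kb and the last at 2 kb) were at least 1.5-fold lower.

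Between 25 and 40 min the pattern was shifted outward and was shallower. The crossover lay at 17.9 kb, and the largest ratio, 2.16-fold (log2 ratio 1.11), at 46.6 kb, where the signal was 2.51 at 40 min and 1.16 at 25 min. In deposited units a ratio of 2 or more extended from 39.8 to 51.3 kb. With each profile divided by its own mean the largest log2 ratio was 0.87, so no position reached a ratio of 2. Of the 122 bins, 23.8% (29 bins, starting between 31 and 59 kb) were at least 1.5-fold higher at 40 min and 0% were at least 1.5-fold lower. In deposited units the loss near the start was mild, with a lowest ratio of 76.5% (log2 ratio -0.39) at -2 kb. Downstream of position 0 the lowest log2 ratio was -0.24, at 2.497 kb. The value at -2 kb became -0.63 with division by the profile mean and -0.44 with division by the far downstream level. From 10 to 20 kb the 2 libraries had almost the same level in deposited units, 3.54 at 25 min and 3.36 at 40 min. This nearness depends on the scaling. The ratio was 0.948 in deposited units, 0.802 with division by the profile mean and 0.912 with division by the far downstream level.

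Over the whole course, from 10 to 40 min, the crossover lay at 6.56 kb and the largest ratio was 4.33-fold at 19.4 kb (3.28 against 0.758). At least a 2-fold higher signal extended from 10.3 to 49.7 kb. Of the 122 bins, 42.6% (52 bins, starting between 9 and 60 kb) were at least 1.5-fold higher at 40 min and 4.92% (6 bins, the last starting at 3 kb) were at least 1.5-fold lower. The lowest ratio was 31.4% of the 10 min signal, at -1.20 kb, a place that lay between -0.547 and -2 kb with other smoothing.

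The sizes of gain and loss were then set against each other as areas (signal multiplied by kb) from 0 to 120 kb. Between 10 and 25 min 65.4 units were gained and 13.6 lost, so the loss was 20.7% of the gain. Between 25 and 40 min 49.4 were gained and 7.64 lost, or 15.5% of the gain. The largest gain in signal was 2.69, at 14.5 kb, in the first interval and 1.45, at 40.3 kb, in the second. The zone with at least 50% of that largest gain ran from 8.02 to 29.5 kb in the first interval and from 26.6 to 58.6 kb in the second, a widening from 21.4 to 32.0 kb. The largest gain, its place and the width of this zone depend on the unstated scaling, and they were not recomputed under either division. In deposited units the totals from 0 to 120 kb were 168, 220.4 and 262 units, and areas depend on the unstated scaling too. With each profile divided by its own mean, which makes the totals nearly equal by construction, 37.7 units were gained and 30.9 lost in the first interval and 21.4 gained and 20.4 lost in the second.

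The far region differed little. From 80 to 120 kb the ratio of 25 over 10 min averaged 1.13 (SD 0.0234 over 40 bins of 1 kb), that of 40 over 25 min 1.04 (SD 0.00714) and that of 40 over 10 min 1.17 (SD 0.0266). These ratios fall below 1 when each profile is divided by its own mean, since that lowers them by factors of 0.796, 0.846 and 0.673, so no direction can be given for the far region. For 25 over 10 min it also turned the direction in the windows at 40 to 50 and at 60 to 80 kb, for 40 over 25 min in the window at 70 to 80 kb, and for 40 over 10 min in the windows at 60 to 80 kb. Up to 80 kb, division by the far downstream level turned a direction for 25 over 10 min alone, in the same windows. The directions upstream of position 0, from 0 to 2 kb and in the 10 kb windows up to 40 kb were the same under both divisions for all 3 pairs.

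**Figure D3:**
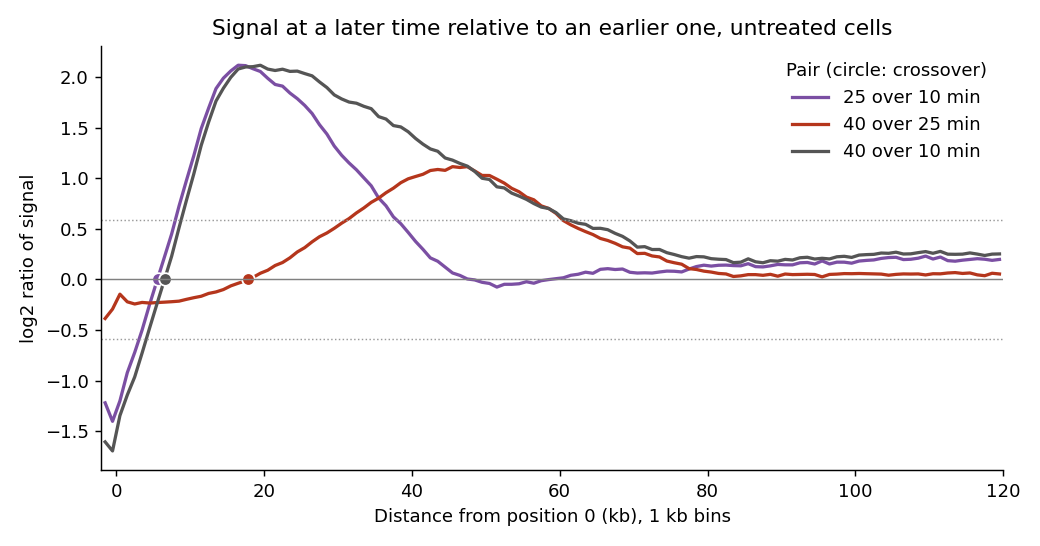
log2 ratio of signal in 1 kb bins (vertical axis) against distance from position 0 (kb, horizontal axis) for 25 over 10, 40 over 25 and 40 over 10 min, 1 library per time; circles mark the crossovers and dotted lines 1.5-fold. On the 2 kb running mean the ratio is largest at 46.6 kb for 40 over 25 min, and at 16.8 and 19.4 kb for 25 and 40 min over 10 min.

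The wave front was read as the first position past the wave maximum where the 2 kb running mean came down to a given share of the height between the far downstream level (mean of the last 12 kb of the span) and that maximum. The maximum was sought from 2 kb on and lay at 2 kb, or at 2.06 kb at 25 min, so the fronts are relative to the signal there: 7.68, 4.33 and 3.69 at 10, 25 and 40 min. At 50% of the height the front lay at 5.15, 23.0 and 46.4 kb. The foot of the wave, at 10% of the height, lay at 10.1, 37.6 and 67.9 kb. Its shoulder, at 90%, lay at 2.57, 8.03 and 8.52 kb. On the flat top of the later profiles this place is poorly defined: at 40 min it was 5.61 kb with a running mean of 0.5 kb and 14.0 kb with one of 5 kb.

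How evenly the wave moved depended on the part of it that was followed. The foot moved 27.5 kb between 10 and 25 min and 30.3 kb between 25 and 40 min, which is 1.83 and 2.02 kb per min. At 25% of the height the movement was 1.61 and 1.71 kb per min, and at 50% it was 1.19 and 1.56 kb per min. At 75% it was 0.754 and 1.38 kb per min, 1.84 times as much in the second interval. At 90% it was 0.364 and 0.0325 kb per min, the latter ranging from -0.0153 to 0.282 with the smoothing. The second interval was therefore close to the first near the foot (ratios of 1.10 and 1.06 at 10% and 25%), and larger in the middle and upper part (1.31 and 1.84 at 50% and 75%). With the lowest smoothed point as background, the foot moved 1.93 and then 1.90 kb per min, so which interval was the faster near the foot depends on the background.

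The front also became less steep. The distance from 75% to 25% of the height was 4.44, 17.3 and 22.2 kb at 10, 25 and 40 min. Over that stretch the signal declined by 0.737, 0.0878 and 0.0528 deposited units per kb in the same order. These declines also depend on the height, which was 6.55, 3.04 and 2.34, and on the unstated scaling. Relative to how far the 50% front had gone, however, the width was 86.3%, 75.2% and 47.8%. The front thus widened less than it advanced.

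**Figure D4:**
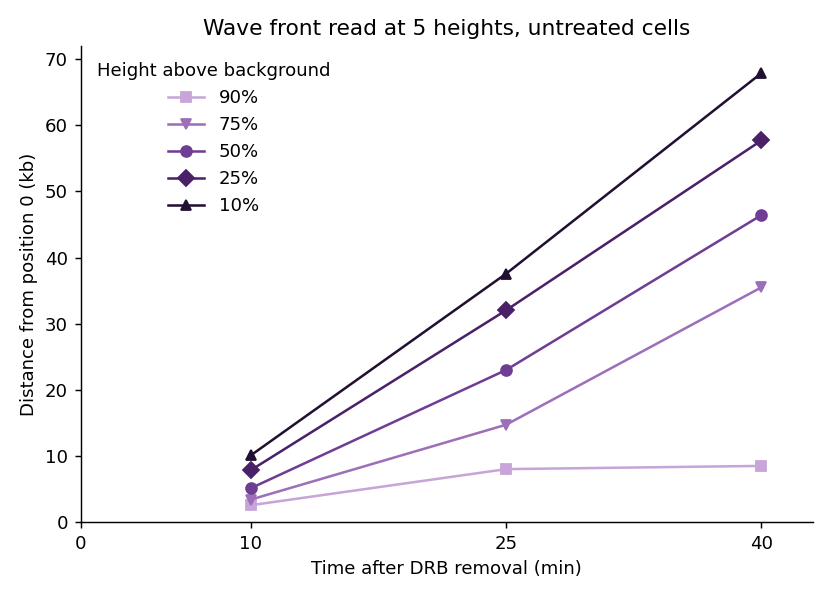
Distance of the wave front from position 0 (kb, vertical axis) against time after DRB removal (min, horizontal axis), read at 90, 75, 50, 25 and 10% of the height above the far downstream level, 1 library per time. The points at 10% lie at 10.1, 37.6 and 67.9 kb, close to a line, whereas those at 90% lie at 2.57, 8.03 and 8.52 kb.

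Because the height shrank with time, the 50% fronts were read at different signals, 4.403, 2.82 and 2.52. The same signal level was therefore also followed through all 3 libraries. A signal of 3 was reached at 7.42, 20.9 and 37.7 kb at 10, 25 and 40 min. A signal of 2.5 was reached at 8.39, 26.1 and 46.8 kb, and a signal of 2 at 9.51, 32.7 and 56.2 kb. A signal of 1.5 was reached at 11.05, 39.0 and 70.7 kb. The movement of these levels was 0.899 and 1.12 kb per min in successive intervals for a signal of 3, and 1.18 and 1.38 kb per min for 2.5. It was 1.54 and 1.57 kb per min for a signal of 2, and 1.86 and 2.11 kb per min for 1.5. Lower levels moved faster, and each of the 4 levels moved farther in the second interval than in the first in deposited units. At a signal of 2 the movements were 23.2 and 23.5 kb, a difference smaller than the 2 kb over which the profiles were smoothed. With each profile divided by its own mean the order turned: a signal of 2 moved 16.5 and then 12.5 kb, and one of 1.5 moved 23.04 and then 17.0 kb. Under that division the 40 min profile nowhere exceeded 2.5 past 2 kb, so the 2 higher levels could not be followed. With division by the far downstream level a signal of 2 moved 18.9 and 20.02 kb, and one of 1.5 moved 25.06 and 25.3 kb, whereas a signal of 3, close to the 40 min maximum of 3.09, was then reached at 3.49 kb at 40 min.

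The spread of the wave was also measured without a front. Of the signal above the far downstream level from 2 kb on, 25% lay within 3.15, 7.57 and 13.4 kb of position 0 at successive times. The distances that held 50% were 4.70, 13.8 and 25.9 kb, and those that held 75% were 7.17, 21.7 and 39.6 kb. The order of times in the last 2 sets depends on the background. Above the lowest smoothed point of each profile, where the far region counts too, the distances that held 50% were 39.4, 16.7 and 26.4 kb and those that held 75% were 79.0, 28.6 and 40.4 kb, so the 10 min library had the largest. The mean signal in the gene body (2 to 50 kb) was 1.504, 2.60 and 3.14, against 7.62, 3.70 and 3.24 from 0 to 2 kb. The ratio of body to promoter-proximal signal, a measure that cancels the scaling factor, was 0.197, 0.704 and 0.967 at successive times, and 0.0579 at 10 min after subtraction of the far downstream level. At 40 min, therefore, the first 2 kb and the next 48 kb held almost the same signal per base. This near equality depends on the window. The ratio at 40 min was 1.14 with the promoter-proximal window ended at 1 kb. After subtraction of the far downstream level it was 0.944.

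Ahead of the wave each profile passed through a low before coming back to the far downstream level. At 10 min the running mean went below that level (1.13) at 12.7 kb, was lowest at 19.7 kb with a signal of 0.757, or 67.1% of the level, and first returned to it at 43.95 kb. At 25 min it went below the level (1.30) at 42.6 kb, was lowest at 51.6 kb (1.11, 85.3%) and returned at 82.4 kb. At 40 min it went below (1.35) at 81.1 kb and was lowest at 90.5 kb, at 97.6% of the level. The low therefore lay farther out and was shallower at each later time. The distance at which the signal had recovered 50% of the way, a measure chosen after the values were seen, was 31.7, 60.5 and 93.7 kb at the successive times. Any uneven profile has a minimum below its mean. At 40 min the low was only 2.37% deep, and the distance of 50% recovery moved to 91.5 kb with a running mean of 0.5 kb and to 98.0 kb with one of 5 kb. Between 50 and 90 kb the 10 min profile stood slightly above its own far level, with a highest running mean of 1.20 (106%) at 61.7 kb.

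Between the waves the order of the libraries differed with distance. At 20 kb the smoothed signals at successive times were 0.761, 3.09 and 3.26. At 50 kb they were 1.16, 1.13 and 2.31, so that 25 min was no longer above 10 min there: the 25 min profile lay marginally below the 10 min one from 48.0 to 58.9 kb. From 50 to 60 kb the ratio was 0.978, and both divisions lower it further. At 70 kb the signals were 1.19, 1.25 and 1.52, and at 90 kb 1.16, 1.28 and 1.32.

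**Figure D5:**
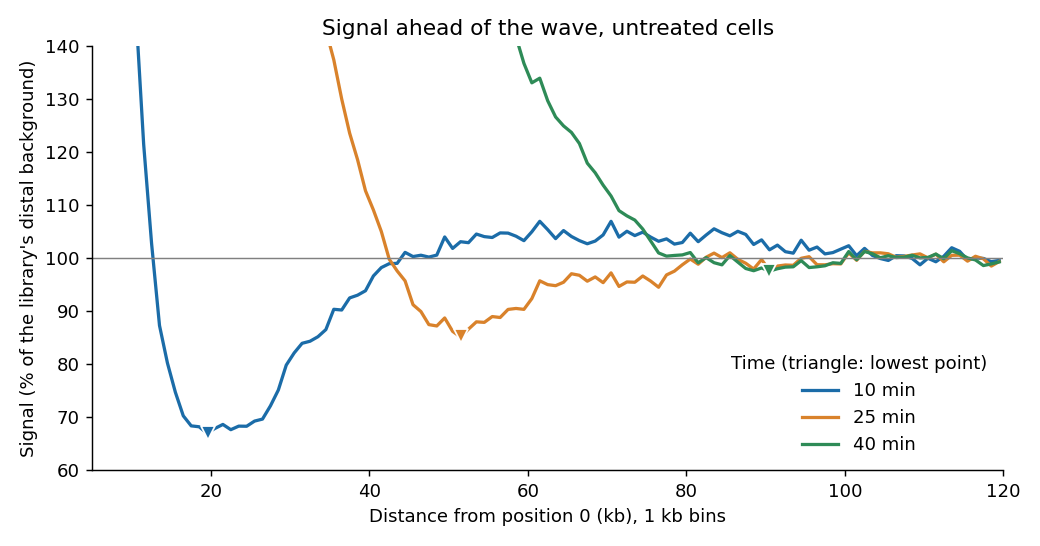
Signal in 1 kb bins as a percent of the library's own far downstream level (vertical axis, starting at 60%) against distance from position 0 (kb, horizontal axis) for 10, 25 and 40 min; triangles mark the lowest point of the 2 kb running mean. The lows are at 67.1%, 85.3% and 97.6% and lie at 19.7, 51.6 and 90.5 kb.

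To give these distances a scale, they were set against the spans of annotated protein-coding genes in GENCODE release 44 lifted to GRCh37, the build that the submitters' processing notes name. The genes the authors averaged are not stated, so this describes the annotation and not the profiles. The median span of the 20176 genes was 27.2 kb. The 50% front at 10 min (5.15 kb) falls inside 85.2% of these genes, that at 25 min inside 54.4% and that at 40 min inside 35.6%. A span of at least 50 kb is found in 33.7% of the genes, at least 100 kb in 18.2% and at least 120 kb in 14.7% (2967 genes). If shorter genes were averaged too, distant positions would include sequence past their ends.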

How the data were processed

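GRO-seq libraries from untreated MRC5VA cells, 1 each at 10, 25 and 40 min, were used, grouped by source name. Per the labels' protocols, strand-specific libraries gave single-end reads (51 bp). BWA 0.5.9 and hg19 (GRCh37) are named in the submitters' processing notes. The authors deposited a signal per position, averaged over genes; the gene set, strand handling, read extension and scaling are not given in the sources used here.

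Computed here, with pandas 2.3.3 and numpy 2.4.6 under Python 3.11.15, were a running mean of 2 kb, window means, log2 ratios with no pseudocount, crossovers and fronts, as described with each result. No test was made, since each time is 1 library. Functions were tested on simulated profiles. Positions named were the crossovers, ratio extremes, fronts, the highest bins near position 0 and the lowest smoothed points; further features near position 0 were picked after the profiles were seen. The libraries, windows and measures were chosen with earlier results of these data known. Alternatives changed the smoothing, background, scaling, bins and fold. No gene is named, because the profiles are averages over genes.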

Additional observations from a re-analysis of the deposited data

How the results depend on the processing

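Of 393 values recomputed under an alternative, 247 stayed within the tolerance (1 kb, 0.1 on the log2 scale, 1.5-fold for counts of bins, otherwise 5%), 145 moved further and 1 changed sign. Some outcomes were fixed in advance, so these counts do not measure robustness. The divisions leave the 10 min library unchanged and cannot move the place of a largest or lowest log2 ratio. They had to move every window signal at 25 and 40 min. The log2 ratios by window are not among the 393 values, and some changed sign under the divisions, as described above. Nor is the order of the fixed-level movements, which division by the profile mean turned. The tolerance is a fixed setting and says nothing about variation between cultures, which 1 library per time cannot give. The 50% fronts and their movement stayed within it under every smoothing and background tried. The sign changed for the movement at 90% of the height from 25 to 40 min, which was -0.0153 kb per min with a running mean of 0.5 kb; the cause was not tested. Division by the profile mean moved the crossovers to 7.01 kb (25 over 10 min), 23.97 kb (40 over 25 min) and 8.76 kb (40 over 10 min), and the largest log2 ratios to 1.79, 0.87 and 1.54 in the same order. It left 19 bins higher and 1 bin lower for 40 over 25 min, against 29 and 0. Division by the far downstream level put the crossovers at 19.4 kb (40 over 25 min) and 7.60 kb (40 over 10 min), and the largest log2 ratios at 1.92 (25 over 10 min) and 1.86 (40 over 10 min). These moves follow from the divisions themselves, which lower every later profile relative to the earlier one. A fold of 2, a stricter threshold, left 11 bins higher for 40 over 25 min and 3 and 4 bins lower for 25 over 10 and 40 over 10 min. The distance of 50% recovery at 40 min, an alternative added after the data were seen, lay at 91.5 kb with a running mean of 0.5 kb and at 98.0 kb with 5 kb. No paired analysis was possible because each time is 1 library and the result comes from no test. Depth in reads is unknown.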

Other observations

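Lines fitted by least squares through the 3 fronts reached position 0 at 5.00 min after DRB removal for the front at 10% of the height, at 5.41 min at 25%, 6.93 min at 50% and 8.27 min at 75%. With the lowest smoothed point as background the value was 4.10 min at 10% and 4.87 min at 25%. A running mean of 5 kb gave 5.08 min at 25%, 6.32 min at 50% and 7.53 min at 75%. The line at 90% gave -7.17 min, and -21.5 min with a running mean of 0.5 kb, so it has no use as a start time. At 50% and 75% the front moved 1.31 and 1.84 times as much in the second interval, so a straight line describes those fronts poorly. Each line rests on 3 libraries. Polymerases also extended their transcripts during the 5 min run-on.

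The fine unevenness of the profiles was partly shared between libraries. Across 1100 bins of 100 bp from 10 kb on, the log2 deviations from the 5 kb running median had a Pearson r of 0.59 for 25 and 10 min, 0.54 for 40 and 25 min and 0.41 for 40 and 10 min. This is a description across positions within averaged profiles: neighbouring bins share reads, and if the same genes were averaged at each time the bins share those too.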
